A study of Mus musculus with 22 samples.

Results

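Protocadherins were followed in 22 single mouse astrocytes as every gene of the raw count table whose symbol begins with Pcdh. There were 71 such symbols among the 23453 of the table. Of these, 59 belong to the clustered protocadherins, with 15 Pcdha, 22 Pcdhb and 22 Pcdhg genes, and the other 12 are spread over the genome. The cells came from primary cultures of the cerebral cortex of newborn C57BL/6 mice. The cultures had been shaken, treated for 12 h with 10 µM cytosine arabinoside, an inhibitor of dividing cells, and kept without serum for the last 24 h. Each cell was loaded with the calcium dye Fluo-4, exposed acutely to EtOH, assigned to a response type from its calcium trace and picked with a micropipette. All groups, the NR astrocytes included, had therefore received EtOH, and no cell without EtOH was sequenced. The types were S-type (a slow rise and decay, 6 cells), T-type (a transient rise, 6 cells), M-type (a mixture of both, 5 cells) and NR (no response, 5 cells). The labels do not name the pup, the culture or the collection time of a cell. A type therefore counted as 1 sample, no test between types was made, and the spread reported is that between cells. All protocadherin values below are described by cell, and the question was how many and which protocadherins an astrocyte of each type expressed, and at what level.

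Protocadherins are cell surface adhesion proteins of the cadherin superfamily that bind the same protein on a neighbouring cell. The clustered genes lie side by side in the Pcdha, Pcdhb and Pcdhg arrays, where each variable exon has its own promoter. In neurons CTCF and cohesin bring a few of these promoters to an enhancer, the choice differs between cells, and the resulting set gives a cell an identity by which its own branches avoid each other. The last genes of the Pcdha and Pcdhg arrays, called C-type, are known for a less random use. Astrocytes also express Pcdhg genes, which take part in their contacts with neurons. Most of the non-clustered genes encode δ-protocadherins, which have their own single promoters, act in cell sorting and axon growth, and in several cases bind the actin-regulating WAVE complex.

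In the GENCODE vM21 annotation (GRCm38), the Pcdha array lay on the + strand of chr18:36930184-37187661, the Pcdhb array of chr18:37264938-37524479 and the Pcdhg array of chr18:37661793-37841873. Of the 71 symbols, 69 matched that annotation, and Pcdha10 and Pcdha4-g did not. The Pcdhb genes and the non-clustered genes had a median of 100% of their exonic bases to themselves. In Pcdha the median was 46.5% and in Pcdhg 55.3%, because the members of an array share their last exons, and the median share of the last 1 kb of a transcript that belonged to a single member was 0% in both. Reads on the shared exons cannot be assigned to 1 member, so the counts of single Pcdha and Pcdhg genes are uncertain. How the counting treated shared reads is not known, and its part in the differences between arrays was not tested. The Pcdh7 and Pcdh10 loci each overlap an antisense gene that the table also lists, and these had 12 and 9 reads in all. The sources do not say whether the counting used strand, so reads on the overlaps (21.1% of the exonic bases of Pcdh7 and 0.969% of those of Pcdh10) cannot be divided between the partners.

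The cells had from 2937786 to 22131076 counted reads. Detection rises with depth, so the number of genes is also given as the number expected if each cell were thinned to the smallest library, 2937786 reads (T-type 3). One library stood apart, T-type 2, with 12564138 reads but a read in only 6319 symbols, where the median of all cells was 10852.5. It held 48 reads of non-clustered protocadherins and none of clustered ones, and T-type values that moved markedly without T-type 2 and T-type 3 are also given without both. All 15 astrocyte markers listed (Gfap, Aqp4, Slc1a3 and others) had reads, with a median sum of 13332 CPM (counts scaled to the library total) in NR, 16999 in M-type, 12297 in S-type and 17341 in T-type astrocytes. Most markers listed for other cell types also had reads. Oligodendrocyte lineage markers were read for 10 of 12 genes, with a sum of 34.0 to 3329 CPM per cell and no read of Sox10 or Gpr17, and neuronal markers for 12 of 13, with 38.1 to 2076 CPM and no read of Slc17a7. Endothelial markers were read for 7 of 10, with 0 to 200.005 CPM and no read of Cldn5, Cdh5 or Tie1, and ependymal and choroid plexus markers for 6 of the 8 found, with 0.145 to 150.03 CPM and no read of Ttr or Tmem212. Markers of mural cells and fibroblasts had reads for 11 of 12 genes, not Rgs5, with 33.9 to 7450.5 CPM per cell and a median sum of 395, 1431, 1349 and 1668 CPM in the same order. Microglial markers had reads for 13 of 13 genes, with a median of 58.2, 0.644, 0.185 and 2.61 CPM and a highest cell of 150.6 CPM among NR astrocytes. The part of these cell types in the results was not tested.

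A larger part of the non-clustered than of the clustered protocadherins was read in an astrocyte. Of the 264 combinations of a non-clustered gene and a cell, 139 (52.7%) had a read, while of the 1298 combinations of a clustered gene and a cell 145 (11.2%) did. Over all symbols of the table the share was 44.6%. Within the arrays the share was 4.24% for Pcdha, 14.0% for Pcdhb and 13.0% for Pcdhg. The gap was as wide with a minimum of 5 reads, at 45.5% of the non-clustered and 6.86% of the clustered combinations, and at the thinned depth, where 46.5% and 7.76% were expected. Non-clustered genes also had more reads where they were seen. A combination with a read held a median of 313 reads in the non-clustered genes and 9 reads in the clustered ones, and 38.6% of the clustered combinations held fewer than 5 reads.

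By cell, the number of clustered protocadherins with a read ran from 0 to 18 with a median of 6, and that of non-clustered ones from 3 to 9 with a median of 6. The S-type astrocytes had a lowest, median and highest of 3, 6.5 and 18 clustered genes, and the T-type astrocytes of 0, 5 and 8. M-type astrocytes had 3, 1, 6, 7 and 7 clustered genes, and NR astrocytes 13, 13, 6, 5 and 6. All types overlapped, and S-type 4 with 18 and both NR cells with 13 were the only cells above 12. At the thinned depth the medians of clustered genes were 4.77 in NR, 4.51 in M-type, 3.95 in S-type and 3.36 in T-type astrocytes. For the non-clustered genes the medians with a read were 6 in NR, 7 in M-type, 8 in S-type and 5.5 in T-type astrocytes, and 5.85, 5.30, 6.89 and 4.64 at the thinned depth. Without T-type 2 and T-type 3 the T-type medians were 6 both for clustered and for non-clustered genes.

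**Figure D1:**
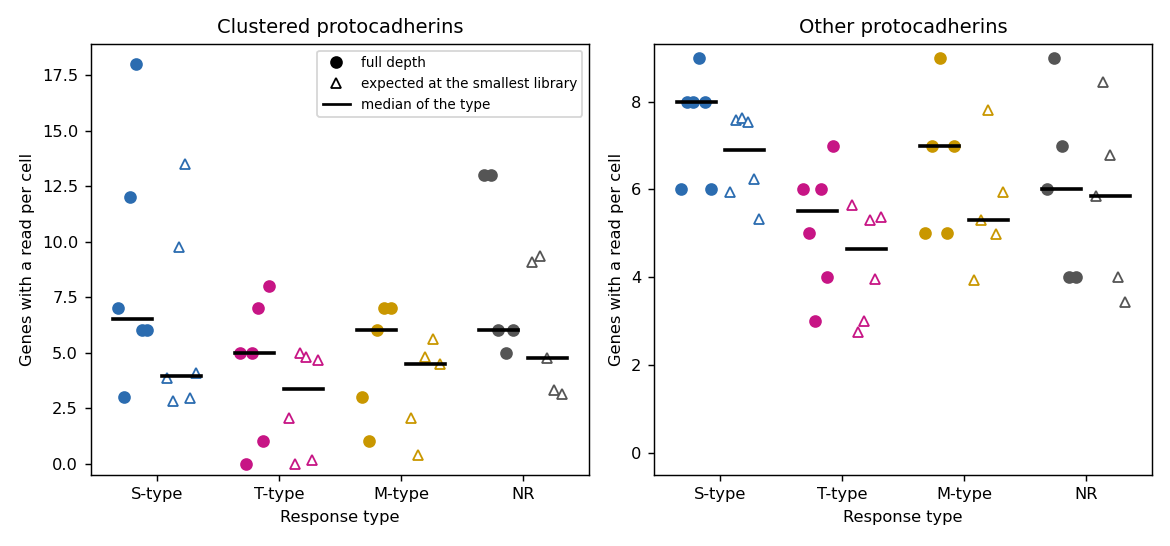
Number of clustered (left) and non-clustered (right) protocadherins with a read in each astrocyte, by response type. Filled circles give the full depth, open triangles the number expected at the smallest library of 2937786 reads, and bars the median of the type. The cells of all 4 types overlap in both panels, and S-type 4 lies highest with 18 clustered genes.

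Of the 12 non-clustered genes 11 had reads, where 74.5% of all symbols did, and the one without was Pcdh12, which is known from endothelium. Of the 59 clustered genes 41 had reads, and the 18 without a read were 9 Pcdha, 6 Pcdhb and 3 Pcdhg genes. A read in at least 5 cells, which was needed for a comparison between types, was seen for 9 non-clustered and 13 clustered genes, and for 54.2% of all symbols. The map of all detected protocadherins shows this difference directly. Pcdh10 and Pcdh7 had reads in 22 of 22 cells and Pcdh17 in 21, whereas the most widespread clustered gene, Pcdhb22, had reads in 11. A read in at least 11 cells was seen for 6 non-clustered genes, 1 clustered gene and 45.8% of all symbols.

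**Figure D2:**
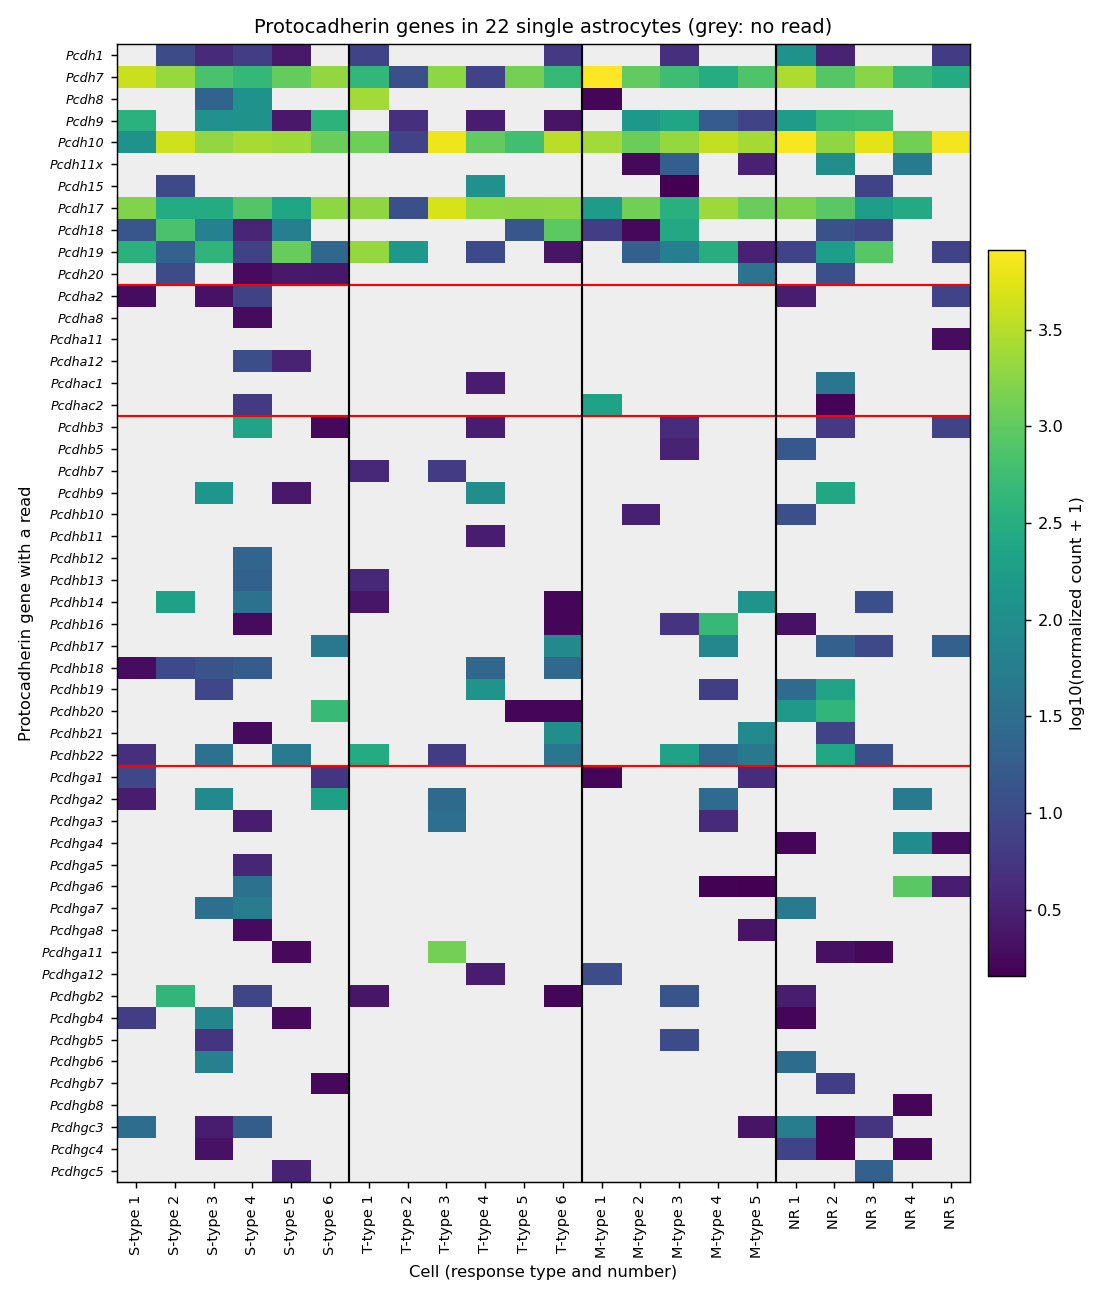
Normalized counts of the 52 protocadherins with a read (rows) in the 22 astrocytes (columns), as log10 of the normalized count plus 1, with grey for no read. Red lines separate the non-clustered genes from the Pcdha, Pcdhb and Pcdhg genes, and black lines the response types. Pcdh7, Pcdh10 and Pcdh17 fill nearly every column, while the clustered genes appear in scattered cells.

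A few δ-protocadherins carried most of the family's reads, Pcdh10 with 80629, Pcdh7 with 43659 and Pcdh17 with 29935 of 181417. All clustered genes together had 11321. Levels of different genes were compared per kb of exonic sequence that no other protocadherin shares, as the mean over the cells of counts divided by a size factor (the normalized count). On that scale Pcdh10 stood at 174.8, Pcdh7 at 136 and Pcdh17 at 89.1, followed by Pcdh8 at 25.8, Pcdh19 at 24.3, Pcdh9 at 17.5 and Pcdh18 at 17.5. Without the cell with most reads of the gene, these 4 stood at 1.50 for Pcdh8, 16.1 for Pcdh19, 14.9 for Pcdh9 and 10.0 for Pcdh18, so the place of Pcdh8 came from T-type 1. The first 3 of these did not keep their order in every cell, since Pcdh10 had the most reads of the non-clustered genes in 14 of 22 cells, Pcdh17 and Pcdh7 in 3 each, and Pcdh19 and Pcdh8 in 1 each. Pcdh1, Pcdh11x, Pcdh20 and Pcdh15 lay under 1, at 0.825, 0.564, 0.517 and 0.244. The highest clustered values were those of Pcdhga11 at 23.5, Pcdhga6 at 16.1 and Pcdhb20 at 13.8, which fell to 0.0476, 0.705 and 8.70 without the cell with most reads of each. Because the amplification primes at the poly(A) end, reads need not rise with exonic length, and the order of genes on this scale is uncertain. Lengths were those of all annotated exons, 15888 bases for Pcdh10, whose longest coding transcript has 8234. In Pcdhg a median of 0% of the last 1 kb was unshared.

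There were 9 non-clustered genes with a promoter window in the RefSeq table for GRCm38.p6, from 250 bases before to 50 bases after a transcript start. Windows of 5 genes are shown to set the genes read in nearly all cells (Pcdh10, Pcdh7, Pcdh17) beside those read in only 4 cells (Pcdh8, Pcdh15). They lie at chr3:45378148-45378447 (+), chr5:57717831-57718130 (+), chr14:84443313-84443612 (+), chr14:79771263-79771562 (-) and chr10:73821617-73821916 (+). The Pcdh15 window lies inside the annotated gene (chr10:73099342-74649737), at a start other than its first. Capitals mark matches on either strand to the core of a GC box, GGGCGG. In the windows of Pcdh8 and Pcdh15, which have none, capitals mark instead the TATA box, searched as TATAAA on either strand.
Pcdh10: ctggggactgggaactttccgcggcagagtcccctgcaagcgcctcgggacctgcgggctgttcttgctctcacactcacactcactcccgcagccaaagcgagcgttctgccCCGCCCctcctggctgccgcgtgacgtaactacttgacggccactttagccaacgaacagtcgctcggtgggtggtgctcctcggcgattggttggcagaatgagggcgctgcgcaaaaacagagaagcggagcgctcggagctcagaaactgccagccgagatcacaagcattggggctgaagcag
Pcdh7: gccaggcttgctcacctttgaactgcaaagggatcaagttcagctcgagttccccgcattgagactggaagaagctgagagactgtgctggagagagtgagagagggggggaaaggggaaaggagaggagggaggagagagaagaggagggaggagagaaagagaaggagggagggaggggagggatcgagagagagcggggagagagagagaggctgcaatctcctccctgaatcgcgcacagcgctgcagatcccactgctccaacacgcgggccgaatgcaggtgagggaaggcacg
Pcdh17: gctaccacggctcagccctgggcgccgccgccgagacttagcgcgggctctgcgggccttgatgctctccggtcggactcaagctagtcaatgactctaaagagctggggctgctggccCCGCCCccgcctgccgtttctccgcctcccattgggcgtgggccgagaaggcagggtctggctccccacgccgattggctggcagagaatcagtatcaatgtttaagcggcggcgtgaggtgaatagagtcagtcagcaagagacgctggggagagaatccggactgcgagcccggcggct
Pcdh8: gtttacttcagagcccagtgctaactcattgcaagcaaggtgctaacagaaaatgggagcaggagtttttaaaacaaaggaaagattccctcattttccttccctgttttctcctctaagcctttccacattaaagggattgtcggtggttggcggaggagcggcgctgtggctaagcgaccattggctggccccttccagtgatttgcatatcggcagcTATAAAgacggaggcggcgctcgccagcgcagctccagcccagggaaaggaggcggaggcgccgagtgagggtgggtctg
Pcdh15: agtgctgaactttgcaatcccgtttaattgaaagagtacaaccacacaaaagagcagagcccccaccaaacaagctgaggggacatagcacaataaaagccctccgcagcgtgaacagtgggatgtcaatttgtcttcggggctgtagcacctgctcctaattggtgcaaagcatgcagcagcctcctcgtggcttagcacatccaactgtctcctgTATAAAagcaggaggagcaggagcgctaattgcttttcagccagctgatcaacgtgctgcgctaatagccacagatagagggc
The windows of Pcdh10 and Pcdh17 each held 1 such GC box core, in both cases on the opposite strand, and no TATA box. Those of Pcdh8 and Pcdh15 each held 1 TATA box, with its first base at -30 and -33 from the start, and no GC box core. The window of Pcdh7, read in every cell, held neither. Among all 32851 RefSeq windows of this length, 35.7% held the GC box core and 13.6% the TATA box on either strand. The windows of Pcdh17 and Pcdh10 had 26 and 24 CpG dinucleotides, those of Pcdh8, Pcdh7 and Pcdh15 14, 11 and 8, and the median of all windows was 7. These letter matches describe the windows and are not evidence of binding.

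Pcdh10, which binds the WAVE complex and is known for its part in axon growth, had its highest levels in NR astrocytes. Its normalized counts were 7625, 1925, 5749, 1283 and 6992 in the 5 NR cells and 2441, 1175, 2060.0, 3774 and 2556 in the M-type cells. In S-type astrocytes the lowest, median and highest were 123, 2154 and 4372, and in T-type astrocytes 7.25, 1121 and 6687. In NR 3 cells lay above all S-type and M-type cells, but the other two lay within their range. The mean was 4715 in NR astrocytes, 2401 in M-type, 2100.2 in S-type and 2152 in T-type. The log2 ratio to NR was -1.17 for S-type (-1.52 to -0.92 when each cell in turn was left out), -1.13 for T-type (-1.92 to -0.87, and -1.60 without T-type 2 and T-type 3) and -0.97 for M-type (-1.21 to -0.73). Under the other 3 scalings of the libraries it stayed between -1.33 and -0.76 in these contrasts. Pcdh10 also took the largest share of non-clustered protocadherin reads in all 5 NR cells, and 95.9% of them in NR 5.

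Pcdh17, which recruits the WAVE complex to contacts between axons, differed most between T-type and NR astrocytes. In 5 of the 6 T-type cells its normalized counts lay at 1934, 4805, 1879, 1849.5 and 1879, and T-type 2, the library that stood apart, had 10.9. The NR cells had 1480.0, 887, 181.9, 280.5 and 0, and the S-type cells a lowest, median and highest of 229, 548 and 1867. M-type cells had 166.4, 1280.0, 342, 2277 and 1155. In normalized counts every T-type cell apart from T-type 2 exceeded every NR cell. Scaled by CPM this did not hold, since T-type 1 had 88.3 CPM and NR 1 had 122.3. Of the other types, 1 S-type cell with 1867 normalized counts and M-type 4 with 2277 reached into the range of the T-type cells other than T-type 2. The log2 ratio was 1.86 for T-type versus NR (1.42 to 2.61 with each cell left out, 1.74 without T-type 2 and T-type 3) and 1.29 for T-type versus S-type (0.84 to 1.69). The other scalings kept it from 1.50 to 1.78 and from 1.06 to 1.25. For S-type and M-type versus NR it was 0.58 and 0.88.

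Pcdh9, another δ-protocadherin, was nearly missing in T-type astrocytes. It had 4 reads over the 6 T-type cells, with no more than 2 in any of them, against 1925 in NR, 763 in M-type and 1249 in S-type. Cells with at least 5 reads numbered 0 of 6 in T-type but 3 of 5 in NR, 4 of 5 in M-type and 4 of 6 in S-type. Single S-type, M-type and NR cells were also at 0, so the types overlapped. The normalized counts were 162.1, 494, 566, 0 and 0 in NR and 0, 142, 239.6, 16.6 and 7.34 in M-type, with 0, 118 and 380.0 as lowest, median and highest in S-type. The T-type level was lower by a log2 ratio of -7.77 versus NR (counting interval -9.64 to -6.41) and of -7.19 versus S-type (-9.06 to -5.83). The intervals, here and below, are exact binomial intervals of 95%, and since the reads carry no molecular identifiers they cover counting error only. Leaving out any 1 cell kept these ratios between -8.62 and -6.74, and without T-type 2 and T-type 3 they were -8.30 and -7.72. For M-type versus NR the log2 ratio was -1.59.

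Pcdh7, an adhesion protein with a tail that binds the phosphatase regulator SET, had no such pattern. Its normalized counts ranged from 288 to 2791 in NR, from 307 to 8217 in M-type, from 459.9 to 4098 in S-type and from 7.30 to 1904 in T-type astrocytes. M-type 1, with 8217, held 30.1% of all its reads. With all cells only T-type versus S-type passed a log2 ratio of 1 in size, at -1.32 (-1.94 to -0.87 with each cell left out, -1.62 without T-type 2 and T-type 3). For T-type versus NR it was -0.83, and -1.13 without those libraries. For S-type and M-type versus NR it was 0.50 (0.04 to 1.04 with each cell left out) and 0.81 (-0.90 to 1.35). Pcdh19, an X-linked gene known from a female-limited epilepsy, varied from 0 to 2062 between cells of the T-type alone, and its T-type versus NR ratio changed sign with the scaling, between -0.25 and 0.90 on the log2 scale, and ranged from -2.78 without T-type 1 to 2.97 without NR 3.

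The remaining non-clustered genes rested on few cells. Pcdh18, whose tail binds Dab1, had reads in 5 of 6 S-type cells (lowest 0, median 36.1, highest 690.4) and 2 of 5 NR cells (11.3 and 7.91). Its log2 ratio was 5.17 for S-type versus NR (2.85 to 6.13 with each cell left out), 5.36 for T-type versus NR, where it fell to -0.50 without T-type 6, and 3.80 for M-type versus NR, where it fell to -1.15 without M-type 3. The mural cell and fibroblast markers, measured beside this gene, summed to 2451 CPM in T-type 6, 975 CPM in M-type 3 and 924 CPM in S-type 2, the cells with most Pcdh18 of their types. The cells with the highest marker sums were others, S-type 5 at 7450.5 CPM with 58.8 normalized counts of Pcdh18 and T-type 1 at 4711 CPM with no read of it, and the sums of S-type 2 and M-type 3 lay below the medians of their types. The part of these markers in the level of Pcdh18 was not tested. Pcdh11x had no read in any S-type or T-type cell. It had 103 and 49.0 normalized counts in 2 NR cells and 0.700, 17.8 and 2.16 in 3 M-type cells, which put its level at least 75.7-fold higher in NR than in S-type and at least 49.0-fold higher than in T-type. Without NR 2 these bounds were 30.5-fold and 19.7-fold. Pcdh1 had reads in 10 cells, but 77.9% of them were in NR 1. Pcdh8, known as an activity-regulated protocadherin, had 90.8% of its 1906 reads in T-type 1 and none in NR. Pcdh20 had 72.7% of its 121 reads in M-type 5 and none in T-type. Pcdh15, a component of the tip links of hair cells, had 61 of its 80 reads in T-type 4, where the oligodendrocyte lineage markers summed to 1431.5 CPM with Sox10 and Gpr17 at 0, and their part was not tested.

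**Figure D3:**
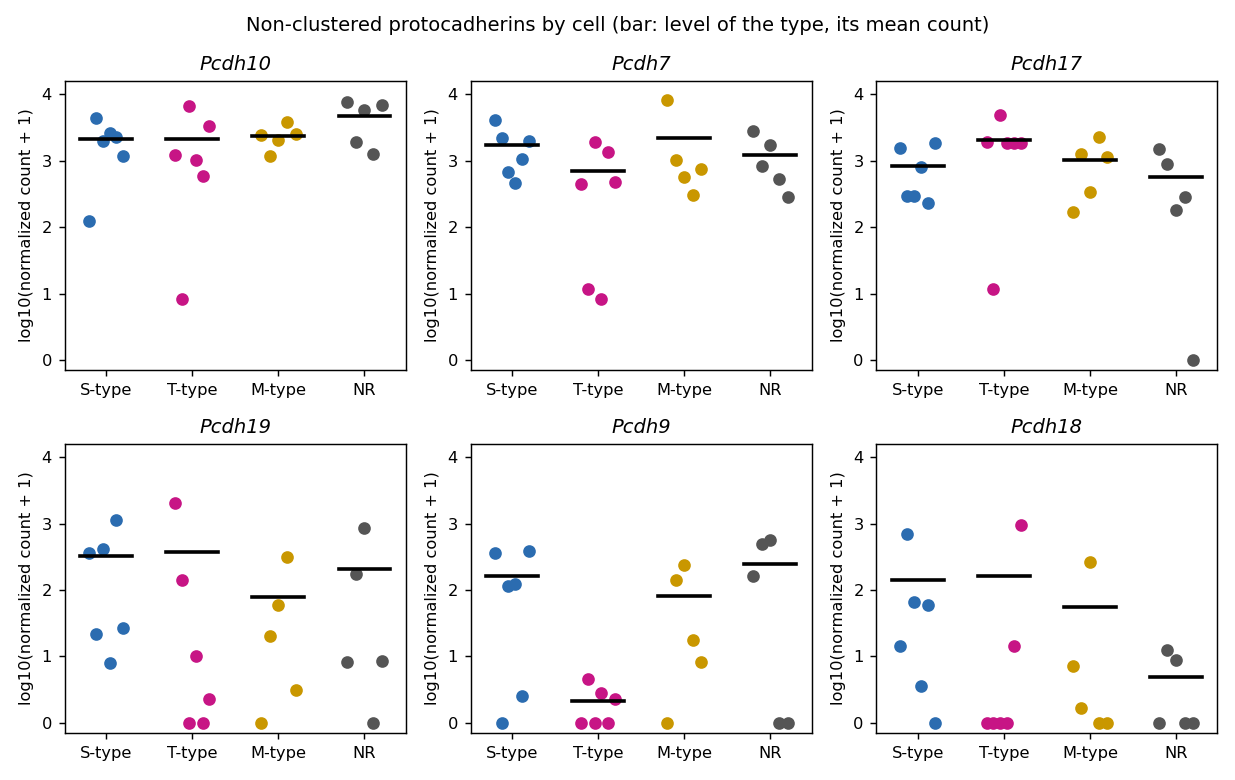
Normalized counts of the 6 non-clustered protocadherins with the most reads, as log10 of the count plus 1, by response type. Each point is 1 cell and the bar is the level of the type, its mean count. Pcdh10 is highest in NR, at a mean of 4715, Pcdh17 is highest in T-type, at 2059.5, and no T-type cell has more than 3.63 normalized counts of Pcdh9.

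The clustered protocadherins of a single astrocyte were dominated by 1 or a few genes, and a different gene led in most cells. In the 21 cells with a clustered read, the leading gene held between 29.4% and 100% of the clustered reads, with a median of 66.9%, and a median of 3 genes made up 90% of them. In these 21 cells 16 different genes led. Pcdhb20 led in 4 cells, in T-type 5 with its only clustered read, and Pcdhb22 led in 3. The other 14 leading genes led in 1 cell each. For comparison, 5 of the 12 non-clustered genes led, beside 16 of the 59 clustered genes, so the sets to choose from were unequal in size. In some cells 1 gene held the large majority of the clustered reads. Pcdhb22 held 97.2% of 217 in T-type 1 (exact interval 94.1% to 99.0%) and Pcdhac2 95.3% of 362 in M-type 1 (92.6% to 97.2%). Pcdhga11 held 95.0% of 262 in T-type 3 (91.7% to 97.3%) and Pcdhb22 86.4% of 508 in M-type 3 (83.1% to 89.3%). The reads include amplification copies, and how many molecules lie behind these shares is not known. Other cells were mixed. In NR 2 with 2196 clustered reads the leading gene, Pcdhb20, held 34.6% and Pcdhb9 came next with 457 reads, and in S-type 3 with 749 reads Pcdhb9 held 29.4% and Pcdhga2 came next with 147.

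**Figure D4:**
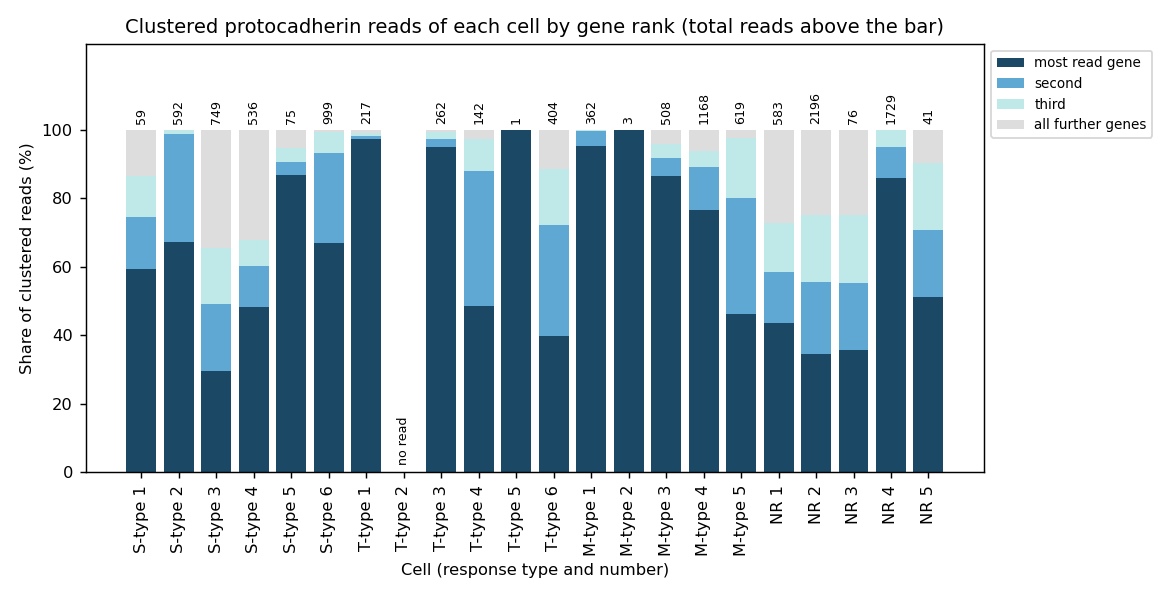
Share of the clustered protocadherin reads of each cell that fell on its most read genes in order of rank, with the total of clustered reads above each bar. The leading share runs from 29.4% in S-type 3 to over 95% in T-type 1, T-type 3 and M-type 1, and the bars of T-type 5 and M-type 2 rest on 1 and 3 reads.

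A pair of astrocytes had few clustered genes in common, with a median of 7.69% of those read in either cell. Of the 231 pairs of cells, 90 (39.0%) shared no clustered protocadherin with a read, and the median pair shared 1. Among the 50 pairs of cells of the same response type, 40.0% shared none, and among the 181 pairs of different types 38.7% did. Counted from 5 reads, 61.0% of all pairs shared none. No pair lacked a shared non-clustered gene, and the median pair shared 5. These shares depend on the number of genes detected in each cell, and pairs that have a cell in common are not independent. The overlap that sparse detection alone would give was not tested, and the non-clustered genes had more reads where they were seen.

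Most clustered genes had the larger part of their reads in 1 cell. Of the 41 clustered genes with a read, 6 were seen in a single cell, and 32 had the majority of their reads in 1 cell. Of the 11 non-clustered genes with a read, 0 were seen in a single cell, and 6 had the majority of their reads in 1 cell. The share over all symbols was not measured. Pcdhga6 had 1485 of its 1530 reads in NR 4, Pcdhb16 893 of 906 in M-type 4, Pcdhac2 345 of 352 in M-type 1, and Pcdhgb2 398 of 439 in S-type 2. Pcdhb20, with 1683 reads the most read clustered gene, had 668 reads in S-type 6, 253 in NR 1 and 760 in NR 2 but only 1 in each of 2 T-type cells and none in M-type. Pcdhb9 was read in 4 cells (457 reads in NR 2, 56 in T-type 4, 220 in S-type 3 and 2 in S-type 5), Pcdhga2 in 6 with 262 of its 556 reads in S-type 6, Pcdhb19 in 5 with 399 of 540 in NR 2, Pcdhb14 in 6 with 286 of 530 in M-type 5, and Pcdhb21 in 4 with 209 of 383 in M-type 5. Pcdhb17 was more even, with 61, 132, 148, 34, 12 and 21 reads in the 6 cells that had it. Pcdhb22 was the only clustered gene read in as many as 11 cells, 3 each of S-type, T-type and M-type and 2 of NR, with 1454 reads.

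Position within an array went with detection in Pcdhb. The 11 genes of its downstream end, Pcdhb12 to Pcdhb22, had a read in 51 of 242 combinations with a cell (21.1%) and 6060 reads, and the 11 upstream genes, Pcdhb1 to Pcdhb11, in 17 (7.02%) with 1073 reads. Exonic lengths differed as well, from 2588 to 4419 bases in the upstream and from 2801 to 8695 in the downstream Pcdhb genes. The part of length was not tested. The Pcdhg array went the other way, with 15.3% in the upstream and 10.7% in the downstream 11 genes. In Pcdha the share was 3.79% in the 6 upstream and 5.84% in the 7 downstream genes. The 5 C-type genes (Pcdhac1, Pcdhac2, Pcdhgc3, Pcdhgc4 and Pcdhgc5) were all detected, in 18 of 110 combinations (16.4%) and with 630 reads, of which 345 were the Pcdhac2 reads of M-type 1. Of the 12 remaining Pcdha genes of the arrays, 4 were detected, in 3.41% of their combinations and with 39 reads. Pcdhgc3, the C-type gene read in most cells, was present in 3 S-type, 1 M-type and 3 NR cells and in no T-type cell.

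Summed over the class, clustered protocadherins took a median of 29.3 CPM in NR, 23.4 in M-type, 42.7 in S-type and 17.8 in T-type astrocytes, and the non-clustered ones 445, 473, 456 and 337. The clustered sum ranged from 3.67 to 61.6 CPM in S-type and from 0 to 89.2 in T-type, and the NR cells had 29.3, 123.5, 5.05, 91.8 and 2.32 CPM. M-type cells had 17.5, 0.158, 23.4, 59.2 and 28.0 CPM. All types overlapped. The log2 ratio of the mean clustered level was -0.43 for S-type versus NR (-0.74 to 0.12 when each cell was left out), -0.54 for T-type versus NR (-1.73 without T-type 3, 0.02 without NR 2), -1.02 for M-type versus NR (-1.57 without M-type 4, -0.47 without NR 2) and -0.10 for T-type versus S-type (-1.29 without T-type 3). Without T-type 2 and T-type 3 both, it was -1.40 for T-type versus NR and -0.97 for T-type versus S-type. For the non-clustered genes it was -0.40, -0.26, -0.27 and 0.13. With all cells and size factors, the clustered genes in M-type versus NR were the only class past a 2-fold ratio, and single cells moved that value to the other side of the limit. Scaled by CPM it was -0.97, and the clustered ratio of T-type versus NR was then -1.04. Among the arrays, the Pcdhg level was 14.4 in M-type against 243 in NR, a log2 ratio of -4.08 (counting interval -4.33 to -3.83) that was -1.64 without NR 4. For T-type versus NR the Pcdhg ratio went from -0.03 to -8.29 without T-type 3, which held 260 of the 263 T-type Pcdhg reads.

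Gene by gene, 22 protocadherins could be compared, and a 2-fold ratio was common in these single cells. In S-type versus NR, 6 were higher and 6 lower, with 25.1% of all genes higher and 22.4% lower. In T-type versus NR, 3 were higher and 14 lower, with 28.6% and 32.4% of all genes. M-type versus NR had 5 higher and 10 lower, with 19.8% and 28.1%, and T-type versus S-type 3 higher and 11 lower, with 26.0% and 32.2%. The median log2 ratio of the 22 genes was -0.31, -1.23, -0.90 and -1.02 in the same order, where the median of all genes was 0.03, -0.05, -0.20 and -0.07. Scaling by CPM moved the median of all genes to -0.45 in T-type versus NR and to -0.44 in T-type versus S-type. In no contrast did any of the 22 have cells of one type all above those of the other. Over all genes 0.204% and 0.204% were higher and lower without overlap in S-type versus NR, 0.189% and 0.802% in T-type versus NR, 0.275% and 0.322% in M-type versus NR, and 0.126% and 0.645% in T-type versus S-type. The 3 contrasts with NR share the NR cells, so their values are not independent of each other.

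The largest ratios among genes with at least 30 reads in the types compared belonged mostly to clustered genes and to single cells. For S-type versus NR they were Pcdhgb2 with 407 against 3 reads, a log2 ratio of 7.65 that was 2.11 without S-type 2, and Pcdh18 on the high side. On the low side were Pcdh11x and Pcdhb19, the latter at -5.27 (-2.43 without NR 2). For T-type versus NR, Pcdh18 and Pcdhb18 were highest. Pcdhb18 was read in 4 S-type and 2 T-type cells and in no M-type or NR cell. Its reads were few, 49 in S-type and 56 in T-type, and its level was at least 16.4-fold higher in S-type and at least 21.5-fold higher in T-type than in NR (11.3-fold without S-type 4 and 11.9-fold without T-type 6). Pcdhb20 with 2 against 1013 reads (log2 ratio -9.09, or -7.48 without NR 2) and Pcdhga6 without a T-type read were lowest, and without NR 4 the bound for Pcdhga6 was lost. For M-type versus NR, Pcdhb16 was highest at 8.59 (2.12 without M-type 4), followed by Pcdh18. Pcdhga6 at -9.87 (-1.29 without NR 4, on 2 against 2 reads) and Pcdhb20, at least 366-fold lower (120.3-fold without NR 2), were lowest. For T-type versus S-type, Pcdhb19 at 3.99 (-0.91 without T-type 4) and Pcdhb22 at 1.93 (-0.68 without T-type 1) were highest. Pcdhb20 at -8.59 and Pcdhgb2 at -7.74 (-2.21 without S-type 2) were lowest. Without S-type 6, the only S-type cell that had Pcdhb20 reads, its ratio was -1.19 against a type without a read.

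Over the 4 contrasts, 26 of the 58 ratios past 2-fold stayed past it whichever cell was left out. In S-type versus NR these were 4 of 8 clustered genes (Pcdhb14, Pcdhb18, Pcdhb19 and Pcdhgb2) and 2 of 4 non-clustered ones (Pcdh11x and Pcdh18). In T-type versus NR they were 3 of 10 (Pcdhb3, Pcdhb18 and Pcdhb20) and 3 of 7 (Pcdh9, Pcdh11x and Pcdh17). In M-type versus NR they were 5 of 9 (Pcdhb16, Pcdhb19, Pcdhb20, Pcdhga6 and Pcdhgc3) and 3 of 6 (Pcdh1, Pcdh9 and Pcdh11x). In T-type versus S-type they were 5 of 10 (Pcdhb14, Pcdhb20, Pcdhga2, Pcdhgb2 and Pcdhgc3) and Pcdh9 of 4. How large a share of the ratios of all genes stayed past 2-fold in this way was not measured. Among the 26, Pcdhb3 in T-type versus NR rested on 1 read against 17. Its log2 ratio moved from -3.04 to 0.53 with thinned cells. Pcdhgc3 in T-type versus S-type had no T-type read and moved from -3.76 to -0.93 with thinned cells. Pcdhb20 was read in 1 S-type cell, S-type 6. Without that cell its ratio of -1.19 in T-type versus S-type set 2 T-type reads against the replaced level of a type without a read. Pcdhga6 in M-type versus NR rested on 2 against 2 reads without NR 4. These 2 ratios therefore stayed past 2-fold only in form.

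**Figure D5:**
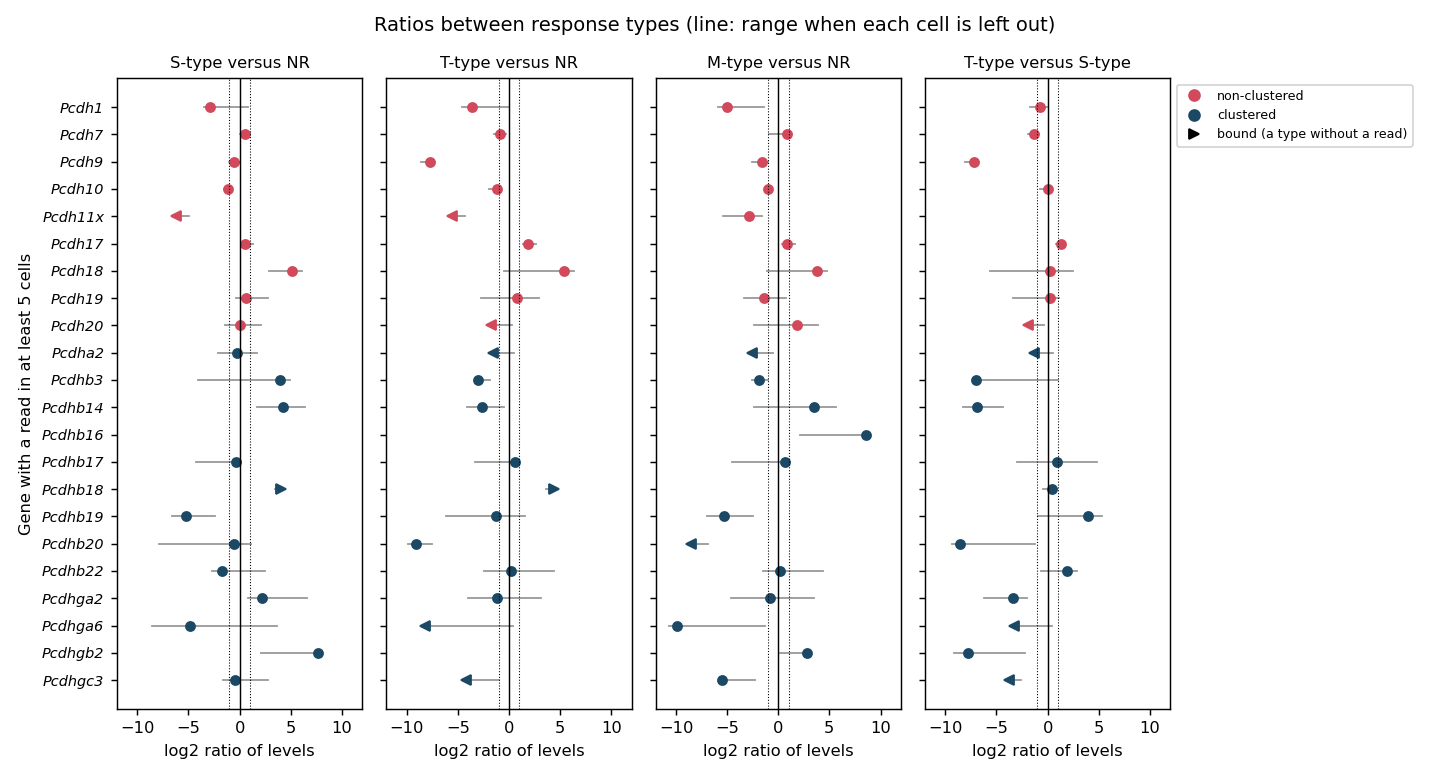
Log2 ratio of the level between response types for the 22 protocadherins with a read in at least 5 cells, with a panel for each contrast and genes with at most 3 reads in both types left out. Red marks non-clustered and blue clustered genes, triangles are bounds where a type had no read, lines give the range when each cell is left out, and dotted lines mark a 2-fold ratio. The lines of many clustered genes cross 0, while Pcdh9 lies at -7.77 in T-type versus NR and at -7.19 in T-type versus S-type.

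Genes that act with protocadherins were measured as lists, described by their counts past 2-fold and median log2 ratios. Of all genes, 28.6% were higher and 32.4% lower in T-type versus NR, 25.1% and 22.4% in S-type versus NR, 19.8% and 28.1% in M-type versus NR, and 26.0% and 32.2% in T-type versus S-type, with medians of -0.05, 0.03, -0.20 and -0.07. Of 16 genes for promoter choice and chromatin at the clusters 15 could be compared. In T-type versus NR 6 were higher and 5 lower, against 28.6% and 32.4% of all genes, with a median of 0.44 (5, 4 and -0.01 without T-type 2 and T-type 3), in S-type versus NR 4 and 1 (0.44), in M-type versus NR 2 and 1 (0.11) and in T-type versus S-type 3 and 5 (0.07). Its genes with the highest level were the cohesin subunits Smc3 and Rad21 and Smchd1, a silencer of the clusters. Smc3 stood at a log2 ratio of 1.64 in T-type versus NR, with 36957 normalized counts in T-type 1, and the ratio was 0.52 without that cell and 2.22 without T-type 2 and T-type 3. Rad21 stood at -0.31 (-0.61 to 0.02 with each cell left out). Smchd1 stood at 3.47, but 1 cell made that value, since T-type 2 had 40089 normalized counts of it and the other T-type cells between 0 and 790, and without T-type 2 and T-type 3 the ratio was -0.63.

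Of 16 comparable genes of the WAVE complex and the kinases bound by protocadherin tails, 7 were higher and 2 lower in T-type versus NR, against 28.6% and 32.4% of all genes, with a median of 0.90 (8, 1 and 1.02 without T-type 2 and T-type 3). In T-type versus S-type 7 were higher and 3 lower, against 26.0% and 32.2%, with a median of 0.93 (7, 1 and 0.83 without them), while S-type and M-type versus NR both had 4 higher and 4 lower (0.24 and 0.35). The WAVE subunit Brk1 stood at 4.15 in T-type versus NR, with 67643 normalized counts in T-type 1 and 1432 to 23497 in the other T-type cells, and at 2.88 without T-type 1. The subunit Cyfip1 stood at 0.65 (0.06 without T-type 1), and Abi2 at 2.77, which was 0.47 without T-type 2 and T-type 3.

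Of the 9 genes for shedding and cleavage of protocadherins, 3 were higher and 0 lower in T-type versus NR, against 28.6% and 32.4% of all genes, with a median log2 ratio of 0.40 (2, 2 and 0.02 without T-type 2 and T-type 3), 3 and 2 in S-type versus NR (0.03), 2 and 2 in M-type versus NR (-0.13) and 3 and 3 in T-type versus S-type (-0.30, or 1 and 1 with -0.45 without those libraries). Adam10, a main sheddase of the family, stood at 0.31 in T-type versus NR and at 0.66 in M-type versus NR (1.50 and 1.86 without NR 1). Of 14 comparable classical cadherins and catenins, 3 were higher and 2 lower in T-type versus NR (-0.24, or 3 and 4 with -0.33 without T-type 2 and T-type 3), 2 and 3 in S-type versus NR (-0.69), 3 and 4 in M-type versus NR (-0.09) and 4 and 2 in T-type versus S-type (0.40, or 1 and 4 with -0.10 without them). Cdh2, the classical cadherin with the highest level here, was at 5073 normalized counts in NR, 2901 in M-type, 3763 in S-type and 5654 in T-type. Of 9 comparable large atypical cadherins, 2 were higher and 2 lower in T-type versus NR (-0.29), 1 and 2 in S-type versus NR (0.49), 2 and 3 in M-type versus NR (0.10) and 2 and 4 in T-type versus S-type (-0.07). Without T-type 2 and T-type 3 that list had 2 higher and 5 lower in T-type versus NR (-2.13) and 1 and 6 in T-type versus S-type (-2.97). Fat1, the most abundant of its genes, was at 0.75 in T-type versus NR, or 0.11 without those libraries.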

How the data were processed

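RNA of 22 single astrocytes was amplified by the antisense RNA method in 2 rounds, which primes at the poly(A) end, and sequenced as paired reads of stranded libraries. The authors aligned the reads to GRCm38 with STAR and deposited raw counts of uniquely aligned exonic reads per gene symbol and cell, without normalization. Their paper names VERSE as the counter and the submitters' processing notes HTSeq, and versions, annotation release and strand setting are not given in the sources used here. Reads carry no molecular identifiers, and counts therefore include amplification copies. Totals ran from 2937786 to 22131076 per cell, and this depth sets the exact intervals, which cover counting error only.

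For scaling, median-of-ratios size factors were taken from the 3670 genes that every cell had reads for. The level of a type was the mean normalized count, and where a type had no read the level was replaced by that of 3 reads spread over its cells (0.397 in NR, 0.319 in M-type, 0.402 in S-type, 0.622 in T-type). A fold against such a type is a bound. Genes with at most 3 reads in both types get no printed fold but stay in the counts. Ratios were restricted to the 12719 genes seen in at least 5 cells, and a log2 ratio of 1 or more in size counted as 2-fold. Cells of a type are not replicates of a condition, since no label ties them to an animal or culture, so no p-value was computed. Python 3.11.15 was used with pandas 2.3.3, NumPy 2.4.6 and, for exact intervals, SciPy 1.17.1, and TMM used edgeR 4.0.16 under R 4.3.3. Figures were drawn with matplotlib 3.10.9. Exonic lengths came from GENCODE vM21 and promoters from RefSeq (GRCm38.p6). The ratio step was tested on simulated counts with known fold changes and counting error only, without the spread between cells. Thinning was tested by drawing from the real counts and comparing with the expected numbers.

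The genes given by cell were the 10 non-clustered and 12 clustered members with the most reads, and for each contrast the 2 members per direction with the largest ratio among those with at least 30 reads in both types together. Other members are named where a count of few genes or a leading gene called for it, after their values were seen. Members and lists were chosen with earlier results of these data known. Alternatives were TMM, CPM, thinned cells, a pseudocount of 1, no filter, detection from 5 reads and leaving out each cell in turn. The libraries T-type 2 and T-type 3 left out together, and genes with at most 3 reads left out, were added after seeing the data. Calcium recordings were not analysed here.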

Additional observations from a re-analysis of the deposited data

Results flagged for a closer look

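Within each response type, Dixon's test was applied to the number of clustered and non-clustered protocadherins with a read, to their summed levels and to the 3 genes read in at least 21 cells, which gave 28 groups. A cell stood apart in 6 of the groups. A rate of about 1 in 20 by chance would hold for independent groups, which these are not. The summed non-clustered level contains the 3 genes that were also tested singly, and 1 library gave 3 of the 6 flags. The number of flags therefore cannot be set against that rate, and the flags only describe single cells. Genes absent from most cells were not tested, since any cell with reads would then stand apart. Levels here are log2 of the normalized count plus 1.

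M-type 2 had a summed clustered level of 1.63, where the other M-type cells lay between 7.83 and 9.25. Of the 3 clustered reads it had, all were from Pcdhb10, although it had 11408 symbols with a read. T-type 2 stood apart in 3 measures. Its summed non-clustered level was 7.45 against 11.6 to 13.7 in the other T-type cells, its Pcdh10 level 3.04 against 9.21 to 12.7, and its Pcdh17 level 3.57 against 10.9 to 12.2. S-type 1 was low in Pcdh10, at 6.95 against 10.2 to 12.1 in the other S-type cells, while it had the highest Pcdh7 count of its type, 4616 reads. NR 5 had a Pcdh17 level of 0, with no read among 17676402, against 7.52 to 10.53 in the other NR cells.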

How the results depend on the processing

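No paired analysis was possible because the cells carry no replicate numbers that tie them to an animal or culture. Class levels moved by less than the spread between cells under every alternative run, although scaling by CPM put the clustered ratio of T-type versus NR at -1.04 and that of M-type versus NR at -0.97. With each cell left out in turn, the clustered log2 ratios ranged from -0.74 to 0.12 (S-type versus NR), -1.73 to 0.02 (T-type versus NR), -1.57 to -0.47 (M-type versus NR) and -1.29 to 0.16 (T-type versus S-type), and the non-clustered ones from -0.63 to -0.10, -0.69 to 0.03, -0.61 to 0.02 and -0.29 to 0.39. Counts of members past a 2-fold ratio depended on the filter. With no filter they were 15 higher and 18 lower (S-type versus NR), 13 and 24 (T-type versus NR), 12 and 22 (M-type versus NR) and 13 and 18 (T-type versus S-type). With thinned cells, where fewer genes pass the filter, the lower counts were 7 for T-type versus NR, 5 for M-type versus NR and 4 for T-type versus S-type, and the higher count was 2 for M-type versus NR. Leaving out each cell gave higher counts of 3 to 6 in T-type versus NR (6 without NR 2), 5 to 8 in M-type versus NR (8 without NR 2) and 3 to 5 in T-type versus S-type (5 without T-type 5 or T-type 6). Without T-type 2 and T-type 3 the higher count was 5 in T-type versus NR. The shares over all genes under these settings were not measured. Counted from 5 reads, the median of non-clustered genes per cell was 5 in M-type, 6.5 in S-type and 4 in T-type, and at the thinned depth it was 5.30 in M-type. Scaled by size factors to the mean total, the non-clustered median of S-type was 318 CPM. From 5 reads, 23 clustered genes were seen in at least 2 cells, where 35 were from 1 read. The large atypical cadherins ranged from -2.45 (without T-type 3) to 0.57 in T-type versus NR and from -3.29 (without T-type 3) to 0.20 in T-type versus S-type, and were -2.13 and -2.97 without T-type 2 and T-type 3. The cause of these shifts was not tested, apart from the smaller number of genes or reads that a filter or thinning leaves. At these depths a gene without a read in a type is known only to lie at or under 3 reads over that type.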
